A study of Mus musculus with 6 samples.

Results

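The 10 genes described here are activity-regulated genes whose products act at synapses, on growth or on cell signalling, and which lie outside the Fos, Jun, Egr and Nr4a families of transcription factors. They were picked by name, as Arc, Npas4, Nptx2, Nrn1, Plk2, Gadd45b, Inhba, Ptgs2, Btg2 and Ier2, by a rule that uses no measured value. Each matched 1 record of the authors' deposited table, which holds 21203 gene symbols in 21540 records. RNA was sequenced from the nucleus accumbens, the ventral part of the striatum, of C57BL/6 mice. The cocaine group had received cocaine at 20 mg/kg by intraperitoneal injection once a day for 7 days, and the control group is labelled saline; both belong to a 4 h withdrawal time point. Each group has 3 libraries. The labels give no genotype beyond the strain, no age or sex, and do not state if tissue was pooled for a library. The saline libraries carry the same protocol sentence on cocaine as the others, so grouping rested on their treatment label.

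When a neuron fires strongly, calcium entry activates kinases and transcription factors such as CREB and SRF, and a set of genes is transcribed within minutes to hours. Part of this set encodes transcription factors of the Fos, Jun, Egr and Nr4a families. The genes described here, some of them just as rapidly induced, mostly encode effectors: proteins that trim or strengthen synapses (Arc, Plk2, Nptx2), secreted or membrane-anchored growth signals (Nrn1, Inhba), an enzyme of prostaglandin synthesis (Ptgs2), and regulators of cell growth and stress responses (Gadd45b, Btg2, Ier2). Npas4 is itself a transcription factor, induced selectively by neuronal activity, that controls inhibitory synapses. Most of these transcripts are short-lived. Induction by activity was not itself measured in these groups, so the name of the set rests on what is known of the genes.

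The promoters of the genes are among the places where such signals act. RefSeq promoter sequences (build GRCm38.p6, 250 bases before to 50 bases after the start) were matched by symbol for 6 of the 10 genes. Arc, Nptx2, Nrn1 and Ier2 were not matched. Plk2 and Inhba are shown because they had the smallest p-values in each direction, and Btg2 because it shares with Plk2 the full cAMP response element, TGACGTCA, the palindrome bound by CREB. Capitals mark that element in Plk2 and Btg2 and the letters TATAAA, those of a TATA box, in Inhba, where they begin 91 bases before the annotated start. All are written 5′ to 3′ on the strand of the gene.
Plk2, chr13:110394794-110395093, plus strand: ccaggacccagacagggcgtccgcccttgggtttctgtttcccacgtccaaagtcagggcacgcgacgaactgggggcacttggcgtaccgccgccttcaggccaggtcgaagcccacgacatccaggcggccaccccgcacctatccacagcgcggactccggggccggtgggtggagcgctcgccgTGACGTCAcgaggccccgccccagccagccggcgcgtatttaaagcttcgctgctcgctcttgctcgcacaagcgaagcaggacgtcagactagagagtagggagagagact
Btg2, chr1:134079106-134079405, minus strand: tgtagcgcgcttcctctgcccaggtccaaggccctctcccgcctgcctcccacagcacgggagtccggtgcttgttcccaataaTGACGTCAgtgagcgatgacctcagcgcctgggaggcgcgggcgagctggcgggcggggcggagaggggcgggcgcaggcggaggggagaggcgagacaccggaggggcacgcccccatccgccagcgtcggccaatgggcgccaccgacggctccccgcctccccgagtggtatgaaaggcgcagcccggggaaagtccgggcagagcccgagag
Inhba, chr13:16011601-16011900, plus strand: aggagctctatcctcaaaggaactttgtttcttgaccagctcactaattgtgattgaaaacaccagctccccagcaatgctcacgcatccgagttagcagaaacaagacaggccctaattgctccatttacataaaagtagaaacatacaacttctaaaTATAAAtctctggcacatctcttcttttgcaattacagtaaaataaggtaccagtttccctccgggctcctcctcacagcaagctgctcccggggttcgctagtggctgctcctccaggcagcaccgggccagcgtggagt
The element begins 62 bases before the start in Plk2 and 166 bases before it in Btg2. It was found in 2 of the 6 matched promoters and in 1.79% of the 32851 promoters of the same length in the RefSeq table.

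Both strands of the 6 promoters were searched for 6 other motifs. The core TGACG, which the full element holds on either strand, was present in 4 of the 6, namely Plk2, Btg2, Npas4 and Ptgs2, against 20.8% of all promoters. TATAAA was present in 2, Inhba and Gadd45b (13.6% of all promoters), and the E-box CACGTG in 2, Gadd45b and Ptgs2 (7.15%). The AP-1 motif TGANTCA (7.81% of all promoters), the CArG box of SRF (1.63%) and the Egr motif GCGTGGGCG (0.612%) were found in 0 of the 6. GC content ranged from 47.7% in the promoter of Inhba to 72.0% in that of Btg2, with a median of 52.7% over all promoters. These matches describe the sequence only, and no binding was measured. Sites outside these windows of 300 bases were not searched.

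The comparison asked whether these effector genes stood at different levels 4 h into withdrawal from repeated cocaine. No member passed. By the q-values of the authors' deposited table, 0 of the 10 tested genes were called at q < 0.05, where 1.23% of the 14959 tested records were called. In the lower direction 0 members were called against 0.709% of records, and in the higher direction 0 against 0.521%. At an unadjusted p under 0.05 the authors' deposited table held 3 members: Plk2 and Arc lower (2 genes, against 3.74% of tested records) and Inhba higher (1 gene, against 2.02%). Over both directions 5.76% of records had such a p. Plk2 had the smallest q, 0.150, then Arc with 0.338, and the other 8 members were listed at 0.999976 in the authors' deposited table. The name of the authors' test is not given in the sources used here, and no other test could be run, since the table holds 1 value per group and none per library.

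The directions were evenly divided. As deposited, 5 members had values above 0 (Nrn1, Inhba, Ptgs2, Nptx2 and Npas4, log2 fold changes of cocaine over saline from 0.06 to 0.37). The other 5 had values below 0 in the authors' deposited table (Ier2, Arc, Btg2, Gadd45b and Plk2, from -0.07 to -0.51). The median over the 10 was -0.0022, beside -0.02 over all tested records, of which 59.0% lay below 0. Without regard to sign the median size was 0.16 for the members and 0.07 for all tested records. Tested records of lower level had larger fold changes in size, and 6 of the 10 members stood under 5 FPKM in both groups. FPKM is a fragment count scaled by transcript length and by library size. Beside tested records of like level (20 equal bins), Arc, Nrn1, Inhba and Ier2 lay above the 90th percentile of size. Npas4 lay below the median of its bin, and the other members lay between median and 90th percentile. Whether level accounts for the larger median size of the members was not tested.

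The table carries no error, so an approximate one was back-calculated. If the deposited p is taken as a two-sided normal test of the log2 fold change, each fold change and its p imply a standard error, and from it an approximate 95% interval. These implied errors ran from 0.02 (Plk2) to 0.28 (Ier2), a 12.7-fold range, and 7 of the 10 intervals included 0. They say nothing of how the authors' test estimated the spread between libraries.

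**Figure D1:**
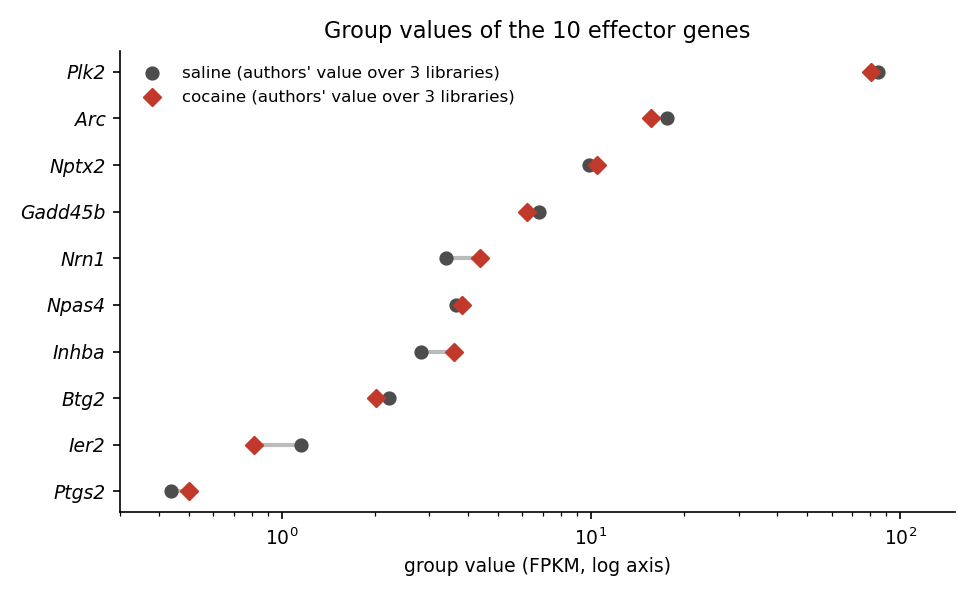
Group values of the 10 genes in FPKM on a log axis, ordered by mean level, with the saline group as circles and the cocaine group as diamonds; each is 1 value of the authors over 3 libraries, with no spread between libraries. The genes span 84.5 FPKM (Plk2) to 0.437 FPKM (Ptgs2) in the saline group, and the gaps between groups are small beside that span.

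Levels differed far more between genes than between groups. In the saline group of the authors' deposited table Plk2 was 193 times as high as Ptgs2, on a scale that corrects for transcript length. Plk2 alone made up 63.8% of the summed FPKM of the 10 genes in that group, and stood 4.79 times as high as Arc, the next. The order by saline level was Plk2, Arc, Nptx2, Gadd45b, Npas4, Nrn1, Inhba, Btg2, Ier2 and Ptgs2. In the cocaine group 8 of the 10 kept their place, and Nrn1 and Npas4 exchanged theirs. Nrn1 and Npas4 stood at 3.40 and 3.65 FPKM after saline and 4.39 and 3.82 FPKM after cocaine in the authors' deposited table, and without values per library neither neighbours in this order nor this exchange can be set against a spread. The mean of the group values placed Plk2 above 93.7% of tested records, Arc above 66.7%, and Ptgs2 above 6.18%. The plot of group values shows this span.

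Genes that act on excitatory synapses came first in level. Plk2, a polo-like kinase that lowers synaptic strength after sustained activity by marking spine proteins for breakdown, had group values of 84.5 FPKM after saline and 80.7 FPKM after cocaine. Its fold change was the smallest but one in size and its p the smallest of the 10: in the authors' deposited table the log2 fold change was -0.07 (approximate 95% interval -0.11 to -0.02), with p = 0.00210 and q = 0.150. It ranked 260th by p among the tested records. The difference was -4.57% of the saline value.

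Arc, which promotes the endocytosis of AMPA receptors, was at 17.6 FPKM after saline and 15.6 FPKM after cocaine. By the authors' deposited table the log2 fold change was -0.18 (approximate interval -0.30 to -0.05; p = 0.00633, q = 0.338), a difference of -11.6%. With a trend with GC content and transcript length removed, it was -0.10. Of the 60 alternative values computed for single members, this was the 1 that moved by more than the implied error. Among the 748 tested records of like level, 15.6 to 19.0 FPKM, the median size of the deposited log2 fold change was 0.06 and the 90th percentile 0.16.

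Nptx2, the neuronal pentraxin also called Narp, is secreted and gathers AMPA receptors at synapses. Its level was 9.84 FPKM after saline and 10.5 FPKM after cocaine. The authors' deposited table gives a log2 fold change of 0.09 (approximate interval -0.04 to 0.22; p = 0.160), which was 0.16 once the GC and length trend was removed. Its close relative Nptx1, at 11.5 and 10.8 FPKM, lay on the other side of 0, at -0.09 (p = 0.0317 and q = 0.936 by the authors' deposited table). Whether the 2 pentraxins differed in their response was not tested. Npas4 had 3.65 FPKM after saline and 3.82 FPKM after cocaine. For it the authors' deposited table lists a log2 fold change of 0.06 (approximate interval -0.12 to 0.25; p = 0.504). As deposited it had the smallest fold change in size and the largest p of the 10 genes. Once the GC and length trend was removed the value was 0.12, no longer the smallest.

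**Figure D2:**
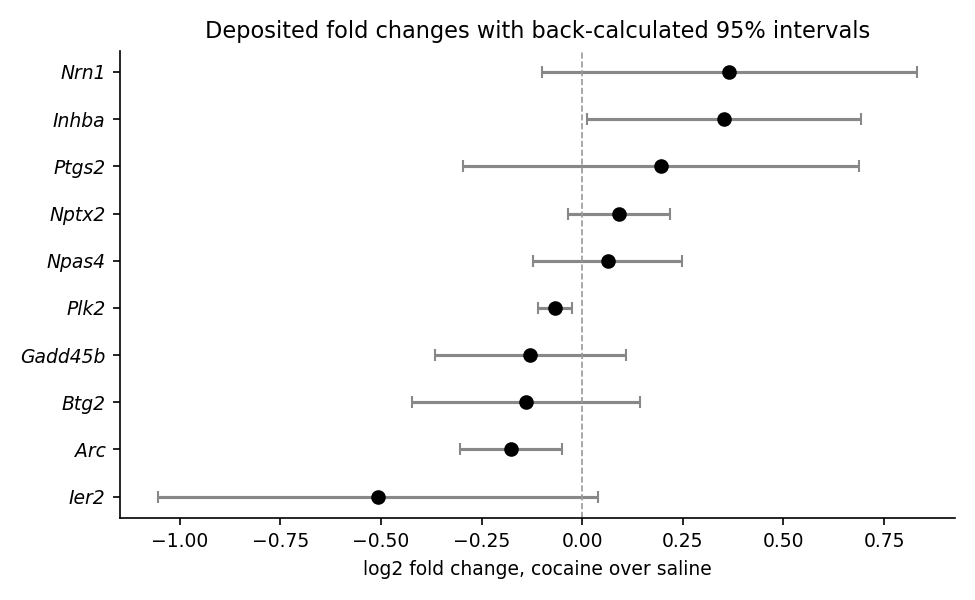
Log2 fold change of cocaine over saline for each of the 10 genes (points, as deposited), with approximate 95% intervals back-calculated from the deposited p-values (bars). Plk2, Arc and Inhba have intervals that leave out 0, before any adjustment over genes, and Ier2, Ptgs2 and Nrn1 have the widest ones.

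Among the growth signals the group values were higher after cocaine, without passing the threshold. Nrn1, or neuritin, is a membrane-anchored protein that promotes neurite growth and spine stability. It stood at 3.40 FPKM after saline and 4.39 FPKM after cocaine, 28.8% higher, in the authors' deposited table. The log2 fold change of 0.37 was the largest above 0 among the members (p = 0.124 by the authors' deposited table). The approximate interval ran from -0.10 to 0.83, so that a fold between 0.933 and 1.78 is within it. Among the 748 tested records of like level, 3.41 to 4.46 FPKM, the median size of the log2 fold change was 0.10 and the 90th percentile 0.24. Nrn1l, the other neuritin gene, had 3.17 and 3.24 FPKM, for a log2 fold change of 0.03 (p = 0.929 by the authors' deposited table).

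Inhba encodes the subunit that forms activin A, a secreted signal of the TGF-beta family induced by synaptic activity. In the authors' deposited table it was at 2.82 FPKM after saline and 3.60 FPKM after cocaine, 27.7% higher (log2 fold change 0.35, p = 0.0426). Its approximate interval was 0.01 to 0.69. Records of like level, 2.50 to 3.41 FPKM, had a median size of 0.09 and a 90th percentile of 0.25, below the value of Inhba. Of the other 17 genes of activin and inhibin signalling listed, 15 were tested and 0 were called in the authors' deposited table, with 0 at an unadjusted p under 0.05. Their log2 fold changes ran from -0.19 (Inhbb, the beta-B subunit) to 0.20 (Fstl3, an activin-binding antagonist), with a median of -0.04. The receptors Acvr1c (4.52 and 4.99 FPKM) and Acvr2a (14.4 and 15.3 FPKM) had the smallest p-values among the receptors in the authors' deposited table, 0.266 and 0.383.

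Nrn1 and Inhba each overlap other genes in GENCODE mouse release 21, all on the opposite strand. These are Fars2 and Gm30177 for Nrn1, and B230303A05Rik and Gm48444 for Inhba. Whether the authors counted by strand is not given in the sources used here. Without strand, reads of these genes and of their opposite-strand partners cannot be told apart, so both values are uncertain to that extent. The other 8 members overlap no gene of that annotation.

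The genes of growth control and stress had values below 0. Gadd45b, a stress sensor also linked to activity-dependent DNA demethylation, stood at 6.76 FPKM after saline and 6.18 FPKM after cocaine in the authors' deposited table. Its log2 fold change was -0.13 (approximate interval -0.36 to 0.11; p = 0.286 by the authors' deposited table). It was -0.06 once the GC and length trend was removed. Its relatives had like values in the authors' deposited table: Gadd45a at 3.51 and 3.14 FPKM (-0.16, p = 0.684) and Gadd45g at 8.38 and 7.50 FPKM (-0.16, p = 0.259). Over the list of 7 Gadd45 relatives and base excision partners 0 were called. All 7 lay below 0 as deposited, and 6 did with the GC and length trend removed or when centred on the median of tested records.

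Btg2, an antiproliferative protein that recruits the CCR4-NOT deadenylase to mRNAs, had 2.23 FPKM after saline and 2.02 FPKM after cocaine. The log2 fold change was -0.14 (approximate interval -0.42 to 0.14; p = 0.331 by the authors' deposited table). Of 12 tested BTG/TOB and CCR4-NOT genes 0 were called, and 1 had an unadjusted p under 0.05 in the authors' deposited table. This was Tob2, at 5.59 and 4.77 FPKM (log2 fold change -0.23, with p = 0.00251 and q = 0.170 by the authors' deposited table). For Tob2 the tested record of highest level was used, since the symbol has several records.

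Ier2, a small nuclear protein of the immediate-early response, showed the largest fold change in size and the lowest level but one. It stood at 1.16 FPKM after saline and 0.813 FPKM after cocaine in the authors' deposited table, a difference of -29.6%. The log2 fold change was -0.51 (approximate interval -1.05 to 0.04; p = 0.0688 by the authors' deposited table). It was -0.25 when 1 FPKM was added to both groups as a pseudocount. Among the 748 tested records of like level, 0.685 to 1.10 FPKM, the median size of the log2 fold change was 0.15 and the 90th percentile 0.48. Related Ier genes at higher levels lay below 0 too, without passing: in the authors' deposited table Ier5l was at 13.5 and 11.5 FPKM (-0.23, p = 0.00246, q = 0.168) and Ier5 at 10.01 and 9.20 FPKM (-0.12, p = 0.0448). Ier3, at 3.52 FPKM in both groups, differed by 0.0015 on the log2 scale of the authors' deposited table.

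Ptgs2, the inducible cyclooxygenase COX-2, was the lowest member. It stood at 0.437 FPKM after saline and 0.501 FPKM after cocaine. By the authors' deposited table its log2 fold change was 0.20 (approximate interval -0.30 to 0.69; p = 0.436). The value was 0.06 with a pseudocount of 1 FPKM. The constitutive enzyme Ptgs1 was higher on that scale, with 5.61 FPKM after saline and 5.96 FPKM after cocaine (p = 0.703 by the authors' deposited table). Of 13 tested genes of prostaglandin synthesis and reception 0 were called, with 0 at an unadjusted p under 0.05. The widest in each direction were low transcripts in the authors' deposited table: Ptges, a prostaglandin E synthase, at 1.58 and 0.864 FPKM (-0.87, p = 0.172), and Tbxas1, thromboxane synthase, at 0.890 and 1.36 FPKM (0.61, p = 0.231).

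**Figure D3:**
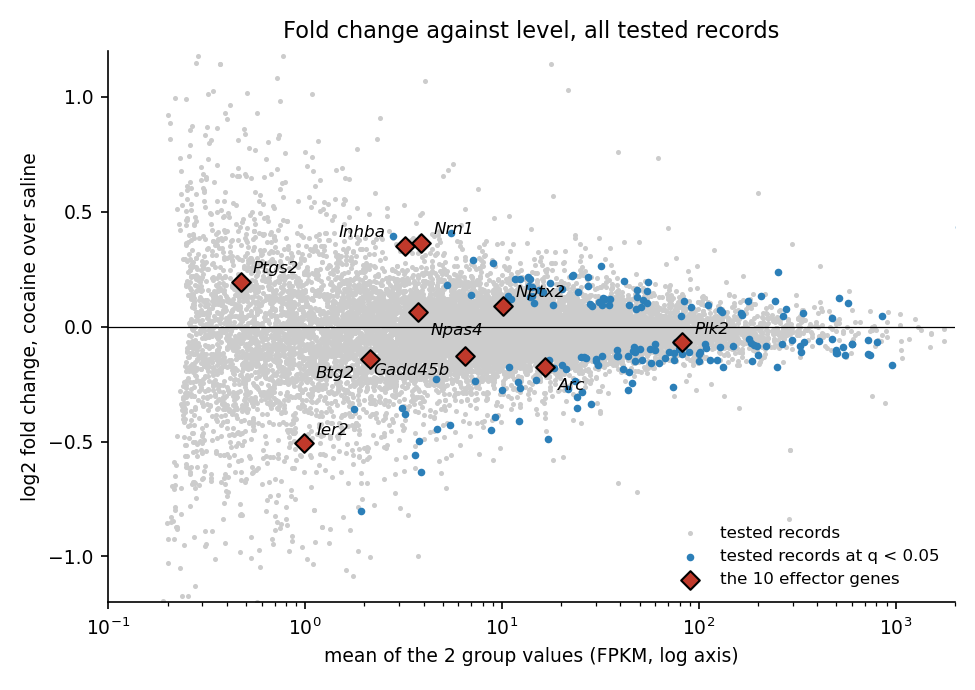
Log2 fold change of cocaine over saline (vertical axis) against the mean of the group values in FPKM (horizontal log axis) for the tested records (grey), those at a deposited q < 0.05 (blue) and the 10 effector genes (red diamonds, named); 80 records beyond 1.2 in size and 15 further records beyond the level axis are not shown. Ier2, Nrn1 and Inhba lie farther from 0 than the other members, and Plk2 stands at a high level near 0.

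The synaptic partners of these effectors gave 3 calls, all higher, where 0.521% of all tested records were called higher. All 3 genes (Sipa1l1, Camk2a and Gria2) stood at levels where calls in either direction were more frequent. The share called was 2.54% among records of 56.2 to 98.6 FPKM, which hold Sipa1l1 and Gria2. It was 8.56% in the highest bin of level, which holds Camk2a. Sipa1l1 (SPAR), a spine protein that Plk2 phosphorylates and so marks for breakdown, rose from 81.3 to 87.9 FPKM in the authors' deposited table (log2 fold change 0.11, p = 4.33e-07, q = 0.000105). It was the 1 call among 9 polo-like kinases and Plk2 substrates. For the kinases Plk1, Plk3, Plk4 and Plk5 the authors' deposited p-values were 0.235 or more.

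Among 16 partners of Arc in receptor endocytosis and in spines, 2 rose and 14 did not pass. Camk2a, the calcium-dependent kinase of the postsynaptic density, rose from 554 to 595 FPKM (log2 fold change 0.10, q = 0.00915) by the authors' deposited table. The authors' deposited table also has Gria2, an AMPA receptor subunit, rising by 0.08 on the log2 scale (89.0 to 94.3 FPKM, q = 0.0216). With the GC and length trend removed Gria2 stood at 0.02. The list median was 0.0027, with 8 genes above 0 and 8 below. Of 6 tested partners and relatives of Npas4, 0 were called. Its dimer partners Arnt (15.6 and 15.5 FPKM) and Arnt2 (53.6 and 53.4 FPKM) had log2 fold changes of -0.0068 and -0.0041 in the authors' deposited table. Of 5 tested pentraxins and partners 0 were called.

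**Figure D4:**
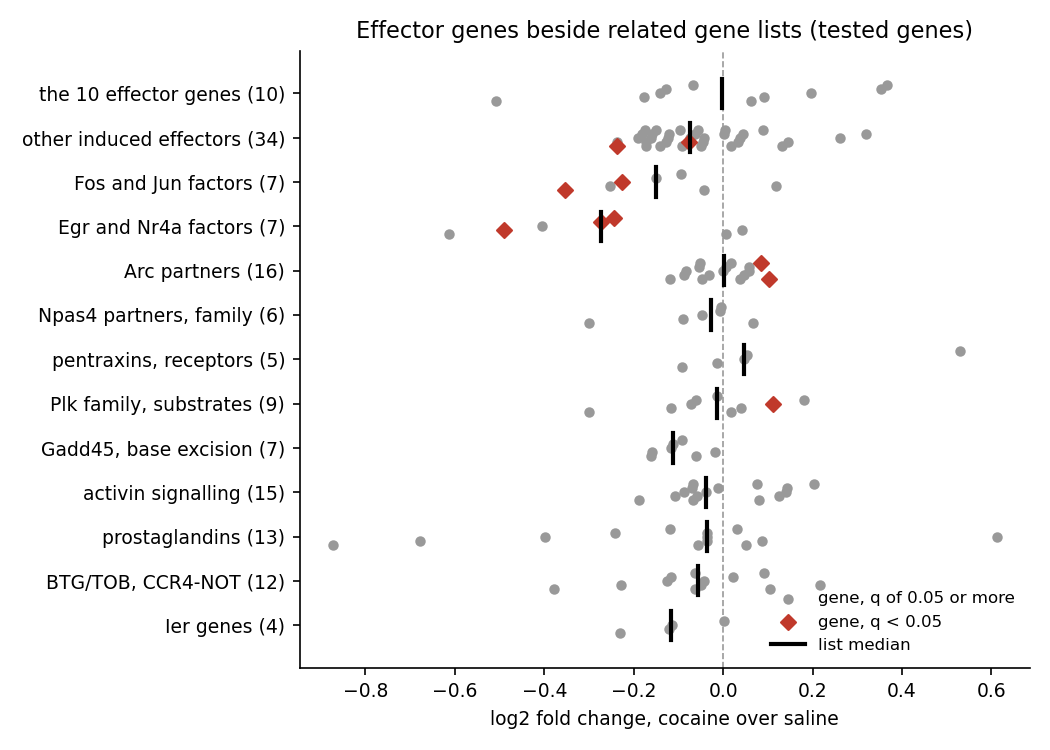
Log2 fold change of cocaine over saline for each tested gene (points, as deposited) in the 10 effector genes and in related lists, with the number tested in brackets; red diamonds mark q < 0.05 and black bars the list medians. The 10 effector genes hold no call and straddle 0, while the Fos and Jun and the Egr and Nr4a factors hold 2 and 3 calls below 0. The lists were not matched for level.

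A wider list of 35 other activity-induced genes gave 2 falls, 0 rises and 32 not passing among 34 tested. Per1, a clock gene that is also activity-induced, fell from 25.5 to 21.7 FPKM (-0.24, q = 0.0212) in the authors' deposited table. Vgf, a neuropeptide precursor, fell from 110 to 104 FPKM (-0.08, the authors' deposited q = 0.0121), and was at -0.01 once the GC and length trend was removed. The list median was -0.08, and 23 of the 34 lay below 0, where 59.0% of all tested records did and 0.709% were called lower. At an unadjusted p under 0.05 the authors' deposited table held 5 genes of the list lower and 3 higher. Of all tested records 3.74% were lower and 2.02% higher at that p. Nptx1, Gadd45a, Gadd45g, Ier3 and Ier5 belong both to this list and to lists described above. Scg2, a granin, and Pcsk1, a prohormone convertase, had values above 0 without passing. In the authors' deposited table Scg2 was at 172 and 183 FPKM (0.09, q = 0.103) and Pcsk1 at 3.35 and 4.18 FPKM (0.32, q = 0.249). In the other direction Mcl1 did not pass either, at 12.7 and 11.3 FPKM (-0.17, the authors' deposited q = 0.107).

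Some of the Fos, Jun, Egr and Nr4a factors were called lower in the same libraries, where 0.709% of all tested records were. Of 7 Fos and Jun genes 2 fell and 0 rose (Junb and Fosl2), with a list median of -0.15. Of 7 Egr and Nr4a genes 3 fell and 0 rose (Nr4a1, Egr1 and Egr4), while Nr4a2, Nr4a3, Egr2 and Egr3 were not called. Here the median was -0.27, or -0.20 with that trend removed. The 10 effectors had 0 calls and a median of -0.0022, or 0.03 with that trend removed. The lists also differed in level. After saline the called factors stood between 4.99 FPKM (Fosl2) and 49.9 FPKM (Egr1). Only 4 of the 10 effectors reached 5 FPKM, and the median of those 4 was -0.10. Srf, the factor that binds the CArG box, also fell, from 18.2 to 16.5 FPKM (-0.14, q = 0.0262 in the authors' deposited table). It was at -0.08 once that trend was removed. Of the other regulators listed beside Srf, Elk1, Crtc1, Mef2a, Mef2c and Mef2d had deposited values above 0 and were not called. Creb1, the gene of CREB, was not marked OK and so counts as untested. These counts come from 1 comparison of the same libraries, and the difference between the lists was not tested, at like levels or otherwise.

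Markers of other cells that the tissue could hold bear on how these values are read, because fewer cells of a type and less RNA per cell cannot be told apart in tissue RNA. Spiny neuron markers were abundant, with all 10 found, none at 0 and a summed level of 3450 FPKM after saline and 3360 FPKM after cocaine, in the tissue labelled nucleus accumbens. Of these 10, 9 lay below 0 as deposited and 4 did once the GC and length trend was removed, and 0 were called. Of 10 endothelial markers, 9 lay below 0, also with the GC and length trend removed. Their median was -0.33, their summed level was 46.0 FPKM after saline and 36.3 FPKM after cocaine, none was at 0 and 1 fell (Cldn5). Of 6 cortical neuron markers, 5 lay below 0 under the same settings, with a median of -0.29, summed levels of 69.3 and 63.2 FPKM, none at 0 and 1 fall (Slc17a7). Arc, Nptx2 and Nrn1 are abundant in cortical neurons and Ier2, Btg2 and Ptgs2 can be expressed in vessel cells. That assignment is background, was not measured here and does not cover all 10 members. Their directions were therefore not set against those of these markers. Of 6 choroid plexus markers 5 were tested and 1 rose: Ttr, from 0.668 to 10.8 FPKM (log2 fold change 4.02). The list median was 0.21, with 3 above 0 and 2 below, and none was at 0. The summed levels were 9.23 and 19.1 FPKM, and the higher sum came from Ttr. Clic6, the highest of the list after saline, was at 6.42 and 5.65 FPKM (-0.18), and Kl at 1.46 and 1.42 FPKM (-0.04). Astrocyte, microglial and oligodendrocyte markers gave 0 calls among 7, 8 and 6, with medians of 0.02, 0.03 and -0.02 and none at 0. Their summed levels after saline and cocaine were 683 and 761 FPKM for astrocytes, 153 in both groups for microglia, and 2714 and 2756 FPKM for oligodendrocytes. The higher astrocyte sum came mostly from Slc1a2, at 377 and 453 FPKM. Of the 7 astrocyte markers 5 lay above 0 and 2 below. The part of these cells in the members' values was not tested.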

How the data were processed

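RNA sequencing of 3 saline and 3 cocaine libraries was analysed from 1 comparison table of the series. TopHat2 2.0.6 and Cufflinks 2.0.2 with build NCBIM37 are named in the submitters' processing notes. Settings, annotation and strand were not stated there or in the labels. FPKM is taken as the unit of the authors' group values from the layout of the table, which names no unit. With each record the authors deposited a p-value, a q-value and a log2 fold change, used as they stand; log2 fold changes recomputed from the group values of tested records lay within 1.28e-05. The depth of the libraries is unknown, and no counting interval or floor is given. The labels do not say whether libraries are separate animals, so p-values may reflect technical spread only.

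A record was used as tested when marked OK in the table, and called at q < 0.05. All 10 members were tested, and 9 reached 1 FPKM. For lists, 1 record per symbol was used: tested records were taken before untested ones, then the highest mean FPKM. The rule for the members uses names only, but members, lists and alternatives were chosen with earlier results of these data known. All members were named, and of each related list the called genes and close relatives. Other genes were picked for mention from their values: Scg2, Pcsk1, Mcl1, Tob2, Ptges, Tbxas1, Ier5l, Fstl3, Inhbb, Acvr1c, Acvr2a, Clic6, Kl and Slc1a2. Elk1, Crtc1, Creb1 and the Mef2 genes were named as the regulators listed beside Srf. The approximate intervals were added after the values were seen. Transcript length and GC content are those of the longest GENCODE mouse release 21 transcript, found for 96.9% of tested records and all 10 members, and the median of each of 10 by 10 cells was subtracted; that annotation is of a later build, so none of its coordinates are printed. Calculations used Python 3.11.15, pandas 2.3.3 and scipy 1.17.1 and were tested on simulated data.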

Additional observations from a re-analysis of the deposited data

How the results depend on the processing

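No paired analysis was possible because the table holds 1 value per group, and for the same reason no library could be left out in turn. The count of 0 members called in either direction held with the deposited p-values adjusted by Benjamini-Hochberg over all tested records, over those of at least 1 FPKM and over those of at least 5 FPKM, and with q < 0.1; the smallest adjusted p among the members, that of Plk2, ran from 0.0829 to 0.150 over the deposited q and these adjustments. At an unadjusted p under 0.05, 2 members were lower and 1 was higher. The median log2 fold change of the members, -0.0022 as deposited, was between -0.10 (the 4 members of at least 5 FPKM) and 0.03 (GC and length trend removed) over 7 alternatives, and its sign changed among them. The 6 alternatives for single members turned the sign of 0 of the 10 genes. Depth being unknown, the low levels of Ptgs2 and Ier2 limit what could be detected.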

Other observations

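The error implied by the deposited p-values was smaller at higher levels, and that of Plk2 was small even for its level. Among 748 tested records between 56.2 and 98.6 FPKM the median implied error of the log2 fold change was 0.06, while Plk2 had 0.02. Arc had 0.06 beside a median of 0.11 for records of like level, Nptx2 0.06 beside 0.12 and Npas4 0.09 beside 0.17. For Nrn1 the implied error was 0.24, above the median of 0.17 at its level. The share of records called at q < 0.05 was 8.56% in the highest of 20 equal bins of level and 0 in the lowest 2, so that the 6 members under 5 FPKM stood where few records were called.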
